A study of Danio rerio with 63 samples.

Results

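The Zic genes encode a small family of zinc-finger transcription factors related to the Gli proteins of Hedgehog signalling. The genes followed here, zic1, zic2a, zic2b, zic4, zic5 and zic6, were taken from the count table by their symbols. They are 6 of its 32057 genes. No measured value entered the rule, but the family was chosen with earlier results of these data known. In vertebrate embryos Zic genes are known from the neural plate, its border, the dorsal neural tube and the neural crest, and some are also transcribed in gastrula mesoderm and early somites. Nodal, a ligand of the TGF-beta family, induces mesoderm and endoderm through activin-type receptors, and the dorsal mesoderm it induces secretes BMP antagonists that allow ectoderm to take a neural fate.

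Explants are pieces of the blastoderm of a zebrafish (Danio rerio) embryo, here cut about 3 hours after fertilization and cultured in explant medium, and their polyadenylated RNA was sequenced. The ndr2 explants came from embryos that had received 10 pg mRNA of the Nodal ligand ndr2 at the 1-cell stage, the CA-acvr1b* explants from embryos that had received 0.5 pg mRNA of CA-acvr1b*, a constitutively active Nodal receptor, and the uninjected explants from embryos without injection. The labels give no strain, and neither injected group had a control mRNA beside it. Each condition was collected at 7 stages, given by the labels as hours post fertilization: 4 for sphere, 4.7 for 30% epiboly, 5.3 for 50% epiboly, 6 for the shield stage, 8 for 75% epiboly, 9 for 90% epiboly and 11 for the 2-somite stage, with 3 lettered replicates (A to C), which made 63 libraries in 21 groups. The series calls the replicates biological, but the labels do not say whether letters are separate clutches, so the p-values measure the spread between these libraries.

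Library totals were 11756626 to 19633634 counts in ndr2 explants, 12700045 to 19391459 in CA-acvr1b* explants and 12282911 to 19650245 in uninjected explants. Levels are given as CPM, counts scaled to the library total, and 3 counts correspond to 0.153 to 0.255 CPM, a limit that covers counting error only. The ndr2 transcript itself stood at 44.7 to 72.3 CPM in ndr2 explants at sphere, at 1.08 to 2.43 CPM in CA-acvr1b* explants and at no more than 0.968 CPM in uninjected explants. Differences were tested with edgeR's quasi-likelihood test over 19069 genes, with a call wherever the Benjamini-Hochberg adjusted p lay under 0.05. Levels are not compared between genes, because the table gives no gene lengths.

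Over the 63 libraries zic2a collected 72003 counts, zic1 10305, zic5 2919, zic4 1787 and zic6 392. The remaining gene, zic2b, had 1 count in 1 CA-acvr1b* library at 50% epiboly and none in any other library, so it was not tested. That leaves 5 of the 6 genes in every test. In the RefSeq annotation of assembly GRCz12tu, which is not the build of the counts and was used for neighbours alone, zic1 and zic4 are neighbours on chromosome 24, zic5 and zic2a are neighbours on chromosome 9, and no other protein-coding gene lies between the members of either pair. There zic6, on chromosome 14, overlaps 3 other annotated genes, and zic1 and zic4 overlap 1 each. These overlaps are of whole gene spans. The use of strand in counting is not given in the sources used here, so whether reads of overlapping genes entered these counts cannot be told. In bulk RNA, more cells that transcribe a gene and more transcript per cell cannot be told apart either.

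By 2-somite all 5 tested Zic genes were higher in both kinds of injected explants than in uninjected explants. The first stage with a call differed between genes. zic2a was called from sphere in ndr2 explants, with a miss at 50% epiboly, and from 30% epiboly in CA-acvr1b* explants. Called later were zic5 from 75% epiboly, zic1 from 90% epiboly and zic6 at 2-somite. zic4 was called from 90% epiboly in CA-acvr1b* explants and from 2-somite in ndr2 explants. These stages are where the adjusted p passed the threshold, and they show no difference in onset between ndr2 and CA-acvr1b* explants. Compared directly, ndr2 against CA-acvr1b* explants, zic2a at sphere differed by a log2 value of 0.14 (SE 0.53). That of zic4 at 90% epiboly was -0.73 (SE 0.68), and neither was called. No Zic gene passed the test as lower in injected explants at any stage.

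**Figure D1:**
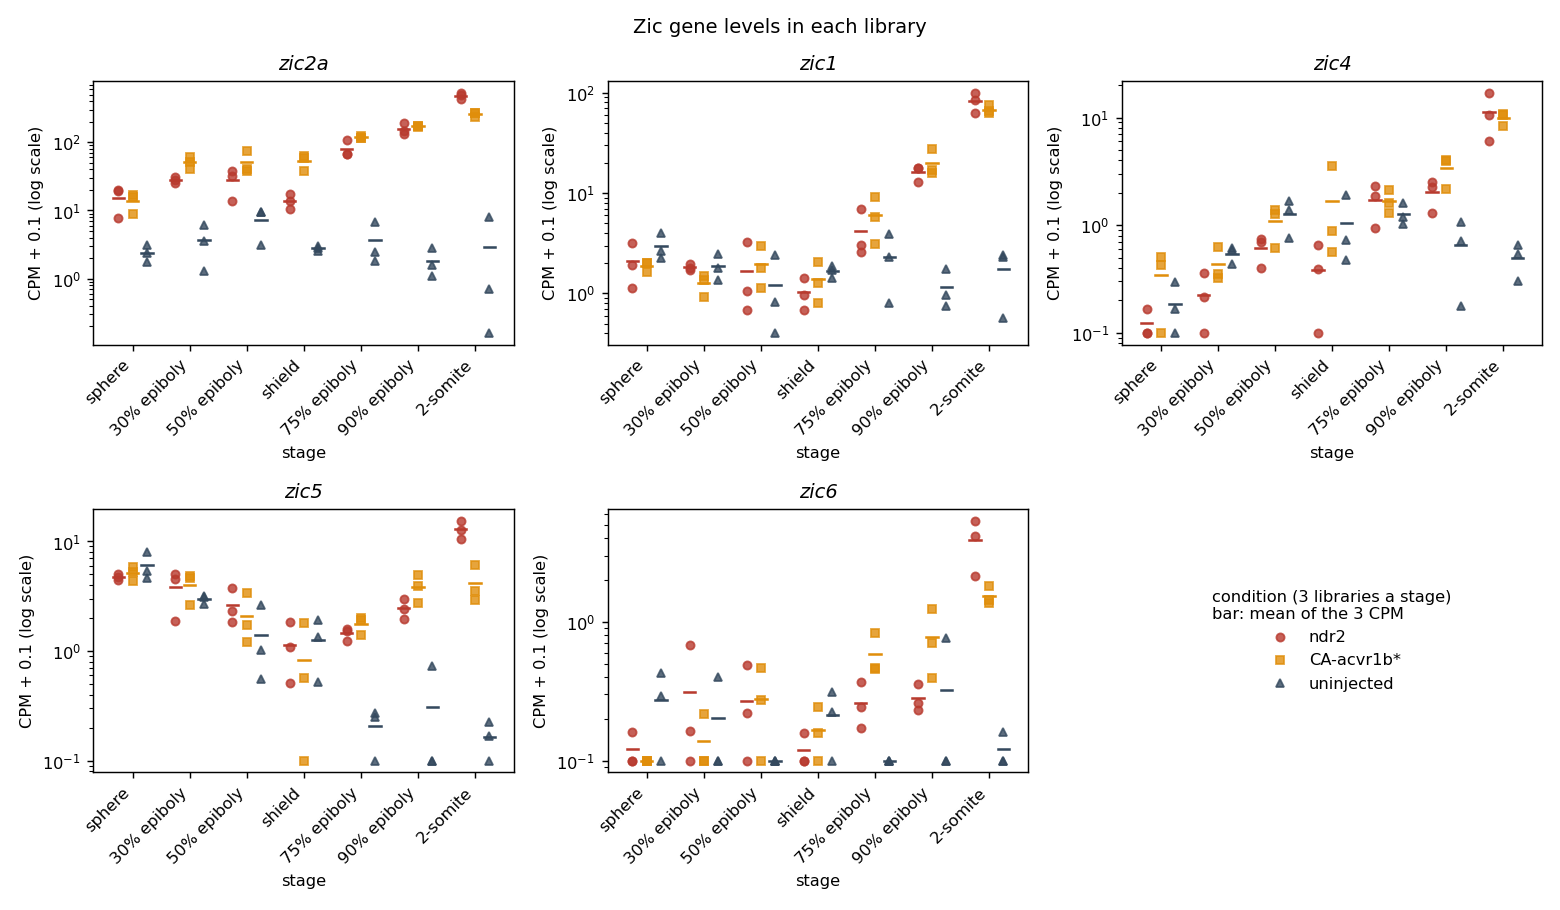
Each point is 1 library, with CPM plus 0.1 on a log axis, against stage, for the 5 tested genes in ndr2, CA-acvr1b* and uninjected explants, and bars mark the mean of 3 libraries. The injected and uninjected points of zic2a are apart at all 7 stages, whereas those of zic5 fall together until shield. For zic1 all injected points lie above the uninjected ones from 90% epiboly. Earlier, its CA-acvr1b* points at sphere and its ndr2 points at shield lie below the uninjected ones.

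zic2a, a gene known in zebrafish from forebrain patterning and from growth of the dorsal midbrain, was the first of the family to be called. At sphere it stood at 7.54, 19.0 and 19.6 CPM in the 3 ndr2 libraries and at 16.6, 15.7 and 8.91 CPM in the 3 CA-acvr1b* libraries, against 1.64, 2.26 and 3.03 CPM in the uninjected libraries. Every injected library was thus above every uninjected one at the earliest stage sampled. The log2 fold change was 2.72 (standard error, SE, 0.61) for ndr2 explants, with an adjusted p of 0.0300, and 2.58 (SE 0.61) for CA-acvr1b* explants, with an adjusted p of 0.0721 that missed the threshold.

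At 30% epiboly zic2a was at 25.1, 30.7 and 27.9 CPM in ndr2 explants and at 51.3, 61.4 and 40.5 CPM in CA-acvr1b* explants, against 6.06, 3.51 and 1.19 CPM in uninjected explants. It rose in both, by a log2 fold change of 2.86 (SE 0.58, adjusted p = 0.0142) in ndr2 explants and of 3.74 (SE 0.59, adjusted p = 0.000319) in CA-acvr1b* explants. At 50% epiboly, when uninjected explants reached their own highest mean of 7.27 ± 3.70 CPM (SD, n = 3), the ndr2 mean was 27.5 ± 12.5 CPM and the CA-acvr1b* mean was 51.1 ± 20.8 CPM (SD, n = 3 each). The change was called in CA-acvr1b* explants (log2 2.77, SE 0.56, adjusted p = 0.00491), and in ndr2 explants it was 1.86 (SE 0.55) with an adjusted p of 0.0724.

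At shield the level was 10.4, 13.7 and 17.4 CPM in ndr2 explants and 58.4, 62.9 and 37.3 CPM in CA-acvr1b* explants, against 2.48, 2.89 and 2.74 CPM in uninjected explants. zic2a rose in both comparisons, with log2 fold changes of 2.37 (SE 0.60, adjusted p = 0.0359) and 4.27 (SE 0.62, adjusted p = 1.45e-05).

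These early calls for ndr2 explants were close to the threshold. When 1 letter of 1 condition was left out at all stages, the sphere call was lost in 4 fits (without ndr2 B or C, or uninjected A or B; adjusted p 0.0601 to 0.288). The 30% epiboly call was lost without any of the 3 ndr2 letters or without uninjected B (adjusted p 0.0665 to 0.0833), and without uninjected A the fold change at 30% epiboly was 3.55 in ndr2 explants and 4.44 in CA-acvr1b* explants. The shield call was lost without any of the 3 ndr2 letters or without uninjected B (adjusted p 0.0605 to 0.181), and the CA-acvr1b* call at 50% epiboly was lost without letter A of that condition (adjusted p = 0.176).

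From 75% epiboly the zic2a levels of injected and uninjected explants lay further apart. The ndr2 libraries held 66.8, 67.7 and 108 CPM at 75% epiboly, 132, 194 and 146 CPM at 90% epiboly and 485, 428 and 526 CPM at 2-somite. The CA-acvr1b* libraries held 116, 117 and 124 CPM, then 166, 172 and 173 CPM, then 272, 237 and 267 CPM at the same stages. No uninjected library exceeded 7.89 CPM at these 3 stages.

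The log2 fold changes of zic2a in ndr2 explants were 4.55 (SE 0.61) at 75% epiboly, 6.58 (SE 0.68) at 90% epiboly and 7.40 (SE 0.68) at 2-somite, with adjusted p of 2.24e-06, 4.75e-09 and 3.82e-11. Those in CA-acvr1b* explants were 5.07 (SE 0.62), 6.67 (SE 0.68) and 6.51 (SE 0.66), with adjusted p of 2.26e-07, 1.71e-09 and 4.95e-10.

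Among uninjected explants at 2-somite, zic2a had 9 counts in library A, 1 in library B and 125 in library C (0.600, 0.0612 and 7.89 CPM). Without letter C of the uninjected condition the 2-somite fold changes of zic2a were 10.5 in ndr2 explants and 9.64 in CA-acvr1b* explants on the log2 scale, and without letter A those at 75% epiboly were 5.32 and 5.87. The summed level of 12 Nodal response genes in the 3 uninjected libraries at 2-somite was 4.67 CPM in A, 6.37 CPM in B and 19.3 CPM in C, and the part of this difference in the zic2a level was not tested.

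zic1, which acts with zic4 in the zebrafish hindbrain roof plate and marks the neural plate and its border, showed no such early difference. Its levels up to shield were 0.583 to 3.13 CPM in ndr2 explants, 0.710 to 2.88 CPM in CA-acvr1b* explants and 0.305 to 3.87 CPM in uninjected explants, and no difference was called. At 75% epiboly it was at 2.97, 2.47 and 6.86 CPM in ndr2 explants and at 3.04, 9.12 and 5.65 CPM in CA-acvr1b* explants, against 3.78, 0.697 and 2.19 CPM in uninjected explants, with neither difference called.

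At 90% epiboly zic1 stood at 17.9, 17.6 and 12.7 CPM in ndr2 explants and at 15.8, 27.3 and 16.7 CPM in CA-acvr1b* explants, against 0.859, 1.67 and 0.651 CPM in uninjected explants. The log2 fold changes were 3.90 (SE 0.56, adjusted p = 5.00e-06) and 4.18 (SE 0.57, adjusted p = 4.83e-07). At 2-somite the levels were 84.5, 62.7 and 99.1 CPM in ndr2 explants and 62.8, 75.3 and 65.0 CPM in CA-acvr1b* explants, against 0.467, 2.20 and 2.34 CPM in uninjected explants. This gave log2 fold changes of 5.62 (SE 0.58, adjusted p = 2.02e-10) and 5.34 (SE 0.57, adjusted p = 5.59e-10), and no injected library came near an uninjected one.

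Its neighbour zic4 was at or below 3.46 CPM in every library up to 75% epiboly, in all 3 conditions. At 90% epiboly it was at 1.19, 2.43 and 2.16 CPM in ndr2 explants and at 3.92, 3.83 and 2.07 CPM in CA-acvr1b* explants, against 0.0781, 0.613 and 0.977 CPM in uninjected explants. The CA-acvr1b* change was called at the edge of the threshold (log2 2.56, SE 0.75, adjusted p = 0.0490), and the call was lost in each of the 6 fits that left out 1 letter of either condition (adjusted p 0.0527 to 0.228). The ndr2 change, 1.83 (SE 0.74), had an adjusted p of 0.222.

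At 2-somite zic4 was at 10.4, 5.94 and 16.8 CPM in ndr2 explants and at 10.7, 10.4 and 8.29 CPM in CA-acvr1b* explants, against 0.200, 0.551 and 0.442 CPM in uninjected explants. Both changes passed the test, with log2 fold changes of 4.77 (SE 0.80, adjusted p = 1.45e-05) and 4.60 (SE 0.80, adjusted p = 2.72e-05). Before 75% epiboly the fitted differences of zic4 in ndr2 explants lay below 0 at all 4 stages, between -1.85 and -1.21, and none was called.

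zic5, the neighbour of zic2a and a partner in the growth of the zebrafish midbrain roof, had a different course. It was present in all conditions at sphere, at 4.64, 4.35 and 4.98 CPM in ndr2 explants, 5.13, 4.24 and 5.80 CPM in CA-acvr1b* explants and 4.59, 5.28 and 8.00 CPM in uninjected explants. By shield the means were 1.04 ± 0.663 CPM, 0.722 ± 0.881 CPM and 1.16 ± 0.708 CPM in the same order (SD, n = 3 each), with no difference called at any of the first 4 stages.

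After shield the conditions parted. At 75% epiboly zic5 stood at 1.48, 1.41 and 1.14 CPM in ndr2 explants and at 1.29, 1.84 and 1.88 CPM in CA-acvr1b* explants, against 0, 0.174 and 0.151 CPM in uninjected explants. Within uninjected explants zic5 fell by 3.33 (SE 0.88, adjusted p = 0.00558) on the log2 scale at 75% epiboly relative to shield, the single Zic change between consecutive stages called in that condition. That call was lost without uninjected A or B (adjusted p 0.0504 and 0.0556), and without uninjected C the change was -3.98.

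The summed counts of zic5 at 75% epiboly were 58 in ndr2 explants and 81 in CA-acvr1b* explants, against 5 in uninjected explants. Per library total these are ratios of 11.9 (exact 95% counting interval 4.83 to 38.1) and 14.5 (5.95 to 45.8). The fitted log2 fold changes were 3.54 (SE 0.88, adjusted p = 0.0172) and 3.81 (SE 0.87, adjusted p = 0.00618), and the ndr2 call was lost without ndr2 A or B or uninjected A (adjusted p 0.0511 to 0.0945).

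At 90% epiboly the uninjected counts of zic5 were 8, 0 and 0, against 22, 35 and 54 in ndr2 explants and 44, 64 and 52 in CA-acvr1b* explants. The fitted log2 fold change was 3.61 (SE 0.81, adjusted p = 0.00518) in ndr2 explants and 4.24 (SE 0.81, adjusted p = 0.000345) in CA-acvr1b* explants. Without uninjected B these were 2.94 (adjusted p = 0.0659) and 3.57 (adjusted p = 0.0162). Without uninjected A the uninjected libraries left had no count, so no fold can be given.

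At 2-somite zic5 was at 15.4, 10.5 and 12.6 CPM in ndr2 explants and at 2.83, 5.99 and 3.43 CPM in CA-acvr1b* explants, against 0.0667, 0 and 0.126 CPM in uninjected explants. The uninjected libraries held 3 counts in all, against 634 and 190. The ratio per library total was 206 (exact 95% counting interval 70.1 to 1001) in ndr2 explants and 66.6 (22.4 to 326) in CA-acvr1b* explants. In the test across libraries the adjusted p was 1.64e-08 and 4.10e-06, with fitted log2 fold changes of 7.50 (SE 0.93) and 5.84 (SE 0.92), and of 8.34 and 6.69 without uninjected C.

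zic6, known from fish and expressed in the dorsal neural tube of zebrafish, was counted in 36 of the 63 libraries, and up to 90% epiboly no library exceeded 1.15 CPM. At 2-somite it was at 4.09, 2.06 and 5.27 CPM in ndr2 explants and at 1.35, 1.27 and 1.72 CPM in CA-acvr1b* explants, and 1 count was found in the 3 uninjected libraries together. Against 193 and 64 counts this gives ratios of 188 (exact 95% counting interval 33.4 to 7465) and 67.3 (11.7 to 2699).

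Both 2-somite changes of zic6 passed the test, with adjusted p of 0.00212 in ndr2 explants and 0.0163 in CA-acvr1b* explants. The fitted log2 fold changes were 7.06 (SE 1.66) and 5.67 (SE 1.62). The CA-acvr1b* call was lost without CA-acvr1b* C or uninjected A or C (adjusted p 0.0583 to 0.0659). Without uninjected B, which held the single count, the uninjected libraries left had no count, so no fold can be given. At 75% epiboly the CA-acvr1b* libraries held 24 counts and the uninjected libraries 0, and this difference was not called (adjusted p = 0.142). Against a floor of 3 counts over the group the ratio is 7.14. The floor covers counting error only and not the spread between libraries. At 90% epiboly uninjected B held 12 counts of zic6, and uninjected A and C held none.

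**Figure D2:**
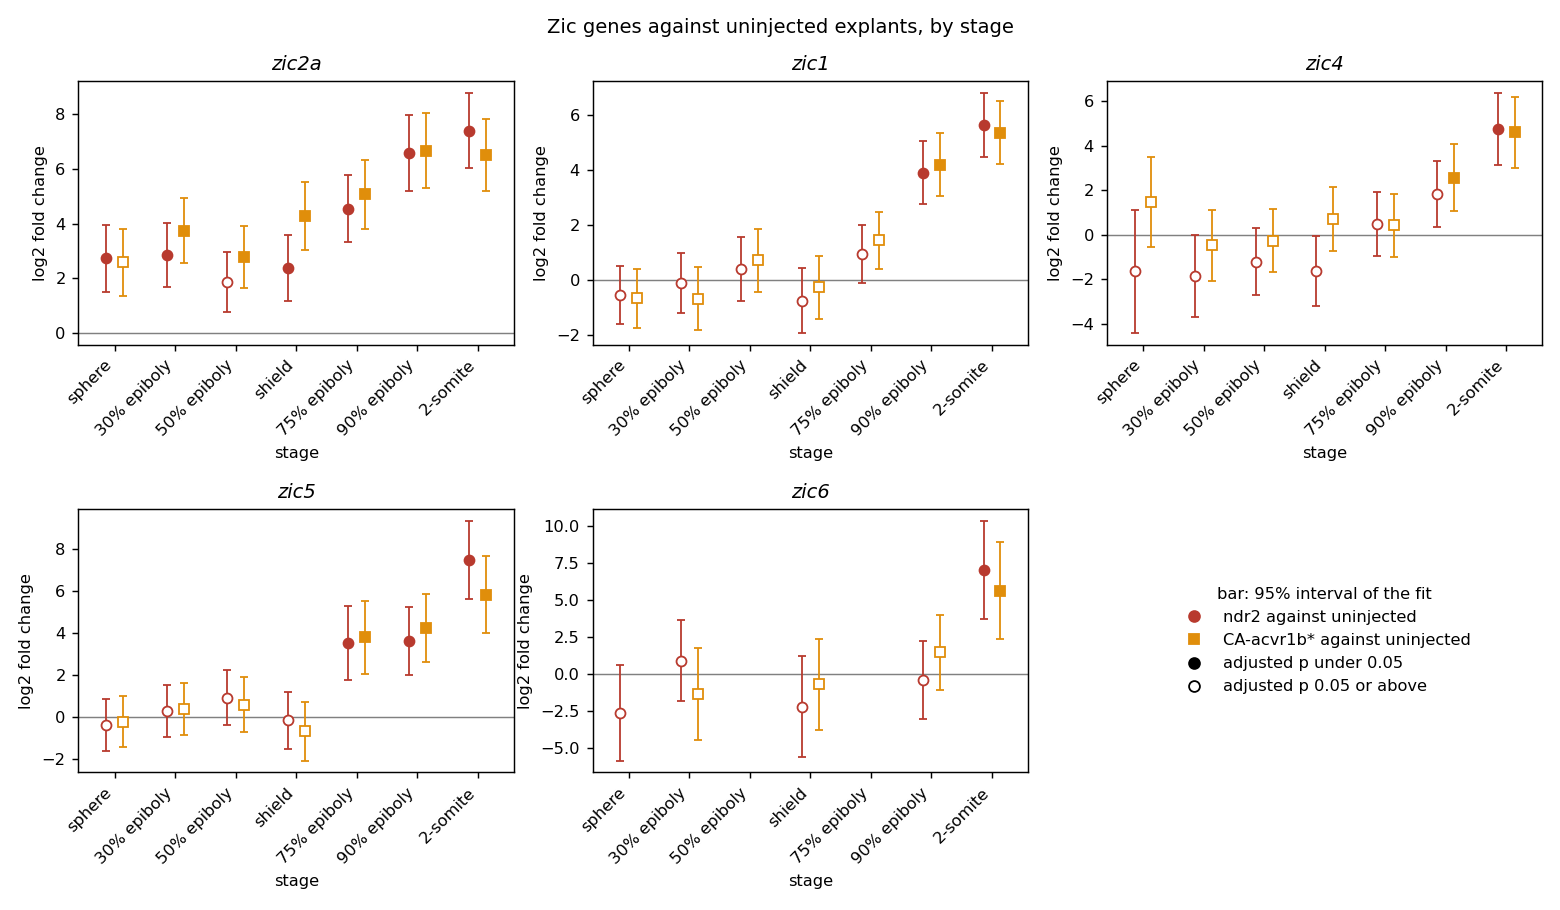
The log2 fold change of each tested Zic gene against uninjected explants is plotted by stage for ndr2 and CA-acvr1b* explants, with 95% intervals of the fit and filled symbols at an adjusted p under 0.05. Groups without any count are not drawn. All 10 points at 2-somite are filled and lie between 4.60 and 7.50, whereas at the first 4 stages the filled points belong to zic2a.

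Set against all genes, the Zic calls looked as follows. In ndr2 explants 1 of the 5 tested genes was called at sphere, where 0.236% of all genes tested were called. The count was 1 at 30% epiboly (0.225% of all genes), 0 at 50% epiboly (1.46%), 1 at shield (1.07%), 2 at 75% epiboly (1.81%), 3 at 90% epiboly (2.61%) and 5 at 2-somite (12.2%). At 50% epiboly 2 of the 5 had an unadjusted p under 0.05, and with DESeq2 1 was called, zic2a (adjusted p = 0.0447).

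In CA-acvr1b* explants none of the 5 was called at sphere, where 0.0420% of all genes were called. With an unadjusted p under 0.05 there were 2, and DESeq2 called zic2a (adjusted p = 0.00837). The count was 1 at 30% epiboly (0.173%), 1 at 50% epiboly (0.357%), 1 at shield (0.472%), 2 at 75% epiboly (1.62%), 4 at 90% epiboly (2.49%) and 5 at 2-somite (9.15%). All 13 calls for ndr2 explants and all 14 for CA-acvr1b* explants were higher, while 7.40% and 6.46% of all genes were called higher at 2-somite. Both comparisons use the same uninjected libraries, so their counts are not independent.

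Averaged over the 7 stages with equal weight, 3 of the 5 genes rose in ndr2 explants, where 17.9% of all genes were called. These were zic2a (log2 4.05, SE 0.23), zic5 (2.19, SE 0.29) and zic1 (1.35, SE 0.21). In CA-acvr1b* explants 4 rose, where 6.81% of all genes were called: zic2a (4.52, SE 0.23), zic5 (1.99, SE 0.29), zic1 (1.44, SE 0.21) and zic4 (1.29, SE 0.30). The averages of zic6 could not be estimated reliably, because some of its groups held no count. Without the 2-somite stage the CA-acvr1b* average of zic4 was 0.74 and not called (adjusted p = 0.346). Over the alternatives the zic1 average ran from 0.66 to 3.17 in ndr2 explants and from 0.79 to 2.99 in CA-acvr1b* explants, that of zic5 from 1.28 to 2.74 and from 0.83 to 2.56, and that of zic2a from 3.51 to 5.05 and from 4.19 to 4.91, all called.

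The size of the difference from uninjected explants depended on stage for all 5 genes in both comparisons. The joint test of the 6 changes relative to sphere was passed by 5.32% of all genes for ndr2 explants and by 3.43% for CA-acvr1b* explants. For zic1 the adjusted p was 9.27e-09 in ndr2 explants and 1.23e-08 in CA-acvr1b* explants, and for zic2a, which already differed at sphere in ndr2 explants, it was 3.21e-06 and 0.000887. Without the 2-somite stage the test was passed by 2 of the 5 genes for ndr2 explants and by 3 for CA-acvr1b* explants.

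Within conditions, consecutive stages were compared, and the Zic calls in ndr2 explants fell at a pair of steps. The steps span unequal times, and this pair, from 6 to 8 and from 9 to 11 hours post fertilization, is the longest. Calls at a step therefore do not give a rate of change. In ndr2 explants zic2a (log2 2.55, SE 0.54), zic4 (2.45, SE 0.78) and zic1 (2.14, SE 0.56) rose at 75% epiboly relative to shield, a step at which 25.9% of all genes were called. At 2-somite relative to 90% epiboly, where 8.82% of all genes were called, zic6 (4.25, SE 1.37), zic4 (2.40, SE 0.70), zic5 (2.33, SE 0.64) and zic1 (2.26, SE 0.48) rose. For zic2a this last step was 1.51 (SE 0.51), with an adjusted p of 0.0531, and at 90% relative to 75% epiboly it was 0.94 (SE 0.50, adjusted p = 0.566). The zic1 change at 90% relative to 75% epiboly was not called in the main fit. It was called by DESeq2 (log2 1.94, adjusted p = 0.0189) and by edgeR fitted to the compared libraries alone (1.94, adjusted p = 0.00897). Over all 6 steps this makes 7 calls in 30 tests, and 16.6% of all tests of these steps were called.

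When 1 ndr2 letter was left out, 3 or 4 calls were made over these steps. At 2-somite the zic5 call was lost without any of the 3 letters (adjusted p 0.0894 to 0.216), as was the zic6 call (0.192 to 0.297), and the zic4 call was lost without A or C (0.178 and 0.249). At 75% epiboly the zic4 change was 1.82 without ndr2 A (adjusted p = 0.178), 2.72 without B (0.0503) and 3.08 without C (0.0374), and the zic1 change without ndr2 C was 1.48 (adjusted p = 0.113).

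In CA-acvr1b* explants zic2a rose by 2.02 (SE 0.53) at 30% epiboly relative to sphere, where 28.5% of all genes were called. zic1 rose by 2.16 (SE 0.54) at 75% epiboly relative to shield (22.2% of all genes) and by 1.70 (SE 0.47) at 2-somite relative to 90% epiboly (5.36%). These are 3 calls in 30 tests, against 15.8% of all tests of these steps. For zic2a in CA-acvr1b* explants the later steps were not called, with 1.16 (SE 0.51, adjusted p = 0.0976) at 75% epiboly, 0.50 (SE 0.50, adjusted p = 0.883) at 90% epiboly and 0.53 (SE 0.50, adjusted p = 0.674) at 2-somite. The zic1 change at 90% relative to 75% epiboly was again called only by DESeq2 (log2 1.74, adjusted p = 0.0364) and by edgeR on the compared libraries alone (1.73, adjusted p = 0.0459). The zic1 rise at 75% epiboly was lost without CA-acvr1b* B (adjusted p = 0.1247) and that at 2-somite without any of the 3 letters (adjusted p 0.0816 to 0.258). In uninjected explants the fall of zic5 described above was the 1 call in 30 tests, at a step where 15.8% of all genes were called, against 16.0% over all 6 steps.

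The order of the 21 group means shows how the stages and conditions interleave. For zic2a the highest mean was that of ndr2 explants at 2-somite, 480 ± 49.0 CPM, followed by CA-acvr1b* explants at 2-somite, 259 ± 19.0 CPM, CA-acvr1b* explants at 90% epiboly, 170 ± 3.87 CPM, and ndr2 explants at 90% epiboly, 157 ± 32.2 CPM (SD, n = 3 each). The libraries of the 90% epiboly groups overlapped. Every ndr2 or CA-acvr1b* group of zic2a ranked above all 7 uninjected groups, whose means lay between 1.73 and 7.27 CPM and each of which overlapped the next in the order. The lowest injected group, CA-acvr1b* explants at sphere, overlapped the highest uninjected one, that of 50% epiboly.

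For zic1 the top of the order was ndr2 explants at 2-somite, 82.1 ± 18.3 CPM, then CA-acvr1b* explants at 2-somite, 67.7 ± 6.70 CPM, with overlapping libraries. The 90% epiboly groups came next, 19.9 ± 6.43 CPM in CA-acvr1b* explants and 16.0 ± 2.92 CPM in ndr2 explants, which also overlapped. For zic5 the ndr2 explants at 2-somite led with 12.8 ± 2.46 CPM, and the next 3 groups were those of sphere, 4.66 to 5.95 CPM, ahead of CA-acvr1b* explants at 2-somite, 4.09 ± 1.68 CPM.

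The ligand and the activated receptor were then compared directly. No Zic gene passed the test between ndr2 and CA-acvr1b* explants at any stage, in 35 tests, where 0.315% of all genes were called over the 7 stages. Of these tests 4 had an unadjusted p under 0.05, DESeq2 made no call either, and 2 were called when the fit held the compared libraries alone. Both were zic2a. At shield its log2 difference was -1.91 (SE 0.53, 95% interval -2.98 to -0.84, adjusted p = 0.149, against 0.00284 in the fit of the compared libraries), and at 2-somite it was 0.89 (SE 0.50, 95% interval -0.12 to 1.90, adjusted p = 0.835, against 0.0166).

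The libraries behind these values did not overlap at either stage. The 3 ndr2 libraries of zic2a were below the 3 CA-acvr1b* libraries at 30%, 50% and 75% epiboly (log2 -0.88, -0.91 and -0.52, none called) as well as at shield, and above them at 2-somite. zic5 at 2-somite was also apart, 10.5 to 15.4 CPM in ndr2 explants and 2.83 to 5.99 CPM in CA-acvr1b* explants, with a log2 difference of 1.66 (SE 0.62, 95% interval 0.40 to 2.91, adjusted p = 0.417). Also apart were zic6, lower in ndr2 explants at 75% and 90% epiboly and higher at 2-somite, and zic1, higher at 30% epiboly, none of them called. The share of all genes whose libraries were apart was not counted, so nothing is concluded from the lack of overlap. For zic1 at 2-somite the 95% interval was -0.64 to 1.20.

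Averaged over stages, 1 of the 5 genes was called, where 8.99% of all genes were. This was zic4, lower in ndr2 explants by a log2 value of -1.18 (SE 0.32, adjusted p = 0.0103), and the call was lost without letter B of either condition (adjusted p 0.0725 and 0.0516) and when counts were summed over stages. Its largest stage differences rested on few counts. They were -3.13 at sphere, on 1 count against 12, and -2.34 at shield, where CA-acvr1b* B held 44 of the 63 CA-acvr1b* counts. At 30%, 50% and 90% epiboly the zic4 difference was -1.37, -0.94 and -0.73, and at 75% epiboly and 2-somite it was 0.06 and 0.17. The average over stages for zic2a was -0.47 (SE 0.19, adjusted p = 0.124). In the same average, 9 of 10 tested Nodal response genes were called lower in ndr2 explants, against 5.56% of all genes. At 2-somite 0 of these 10 were called, where 0.0524% of all genes were called higher and 0.309% lower, so this count is near that of all genes. The part of the Nodal response in the Zic differences was not tested. Whether the ndr2 difference from CA-acvr1b* explants changed with stage was tested jointly, and 0 of the 5 genes passed, with 1 at an unadjusted p under 0.05, where 0.110% of all genes passed.

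**Figure D3:**
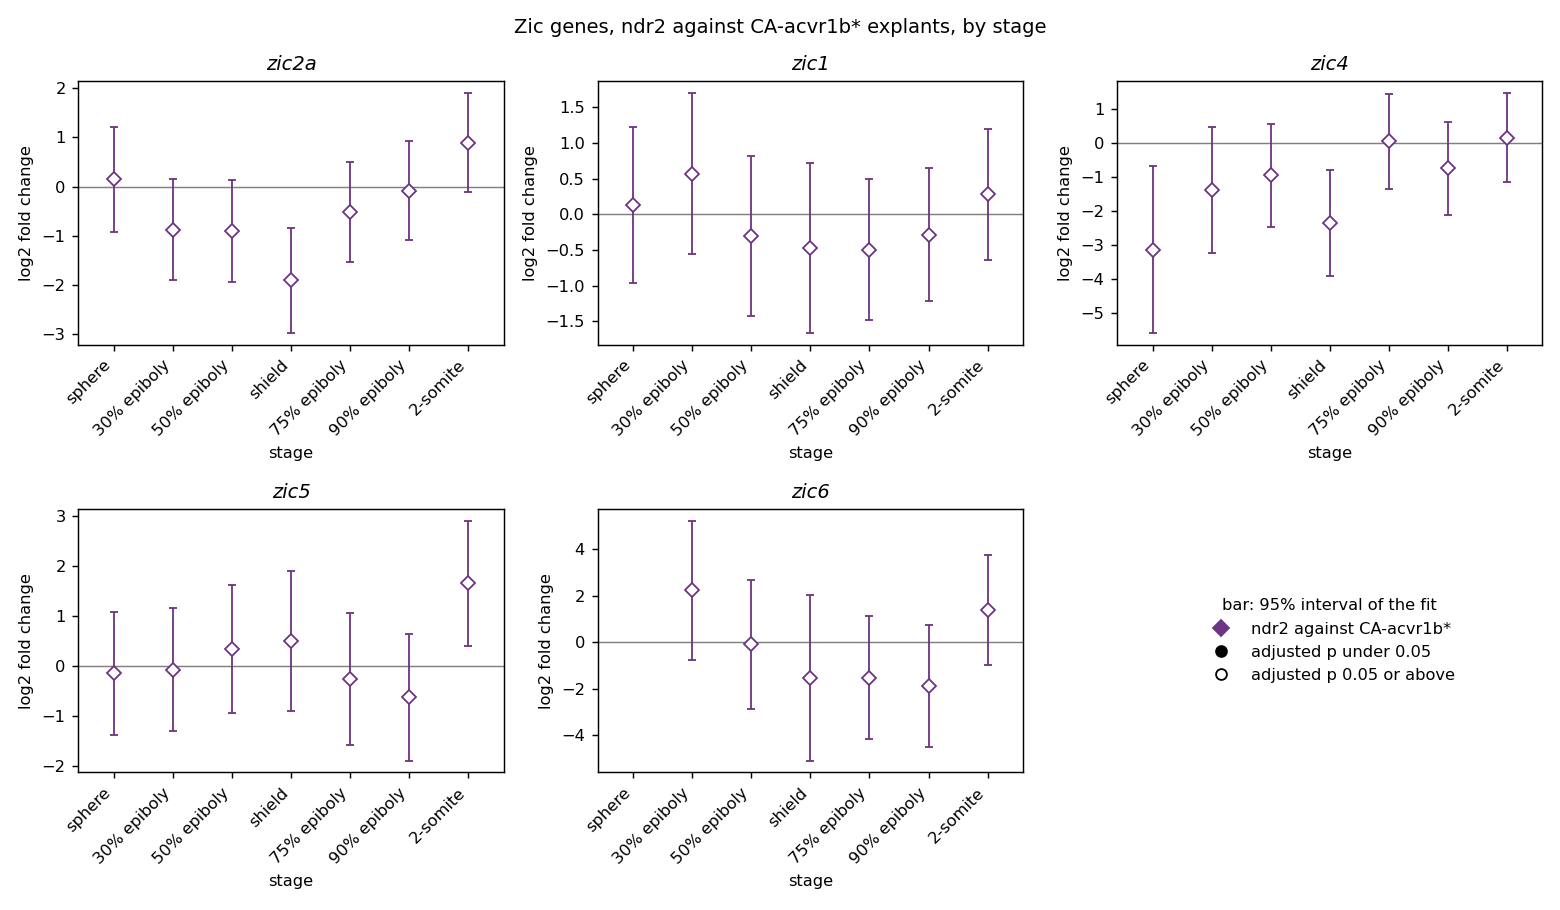
The log2 fold change of ndr2 against CA-acvr1b* explants is plotted by stage for each tested Zic gene, with 95% intervals of the fit. All symbols are open. The intervals of zic2a at shield and of zic4 at sphere and shield lie wholly below 0, and that of zic5 at 2-somite lies wholly above 0, before adjustment for the number of genes tested.

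Genes with a course most like each Zic gene were ranked by Pearson's r over the 21 group means of log2 CPM, after each stage's mean over the conditions was removed, among 12479 protein-coding genes with at least 5 CPM in some group. The closest to zic2a were prickle1b, a planar cell polarity gene (r = 0.977), tbxta, the zebrafish Brachyury gene of the notochord and mesoderm (0.975), and noto, a notochord factor (0.974). The closest to zic1 were cyp26a1, which degrades retinoic acid (0.968), rgma, a BMP co-receptor (0.960), and sh3bp4a (0.959). The closest to zic5 were skilb, a SMAD-binding corepressor (0.959), myf5, a muscle determination factor (0.957), and si:ch211-153b23.5 (0.952). For zic4 they were mn1a (0.946), gmps (0.945) and the neural factor pax6b (0.937), and for zic6 tpbga (0.934), aoc2 (0.934) and hyal2b (0.932). These values are descriptions over groups that share conditions and stages, and the levels of zic4 and zic6 were near the counting floor in many groups.

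With the stage means kept in, different genes led, and several of those named had a lower r: -0.05 for skilb and 0.39 for myf5 with zic5, -0.42 for gmps with zic4, and 0.55 for rgma and 0.37 for sh3bp4a with zic1. The closest to zic2a kept an r of 0.880 to 0.909. The leading genes were then spry4, a feedback inhibitor of FGF signalling, for zic2a (0.964), foxb1b for zic1 (0.965), auts2b for zic4 (0.923), esrra for zic5 (0.939) and the muscle factor myod1 for zic6 (0.928). Among the Zic genes themselves the highest pair was zic1 and zic5 with the stage means removed (0.931, and 0.503 with them kept), and zic1 and zic6 with them kept (0.910, and 0.870 with them removed). The neighbouring pairs were at 0.869 and 0.796 for zic1 and zic4, and at 0.842 and 0.560 for zic2a and zic5.

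To show what else changed at 2-somite beside the Zic genes, lists of developmental genes were counted in the same tests. In all genes tested, the median log2 fold change was 0. In ndr2 explants 7.40% were called higher and 4.84% lower, and in CA-acvr1b* explants 6.46% were called higher and 2.68% lower. The list entries are described by their counts and medians without a test of the list.

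The SoxB1 and neural plate regional lists rose widely. Of 5 tested SoxB1 genes, the early neural transcription factors, 4 were higher in ndr2 explants and 4 in CA-acvr1b* explants, with list medians of 2.32 and 2.84. sox3 had the largest change, 4.23 in ndr2 explants and 4.36 in CA-acvr1b* explants. Of 14 regional factors of the neural plate, 11 were higher in each, with medians of 4.84 and 4.86 (4.84 and 4.32 with genes lacking any uninjected count set at their bound). Examples are rx3, an eye field factor, at 16.3 CPM in ndr2 explants and 25.4 CPM in CA-acvr1b* explants, against 0.0643 CPM in uninjected explants, and gbx1, a hindbrain factor, at 121 and 48.7 CPM against 1.84 CPM.

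The border and neural crest list was mixed. Of its 16 tested genes 3 were higher and 2 lower in ndr2 explants, and 4 were higher and 3 lower in CA-acvr1b* explants. Under other scalings the lower counts were 3 in ndr2 explants and 5 (DESeq2's size factors) or 4 (library totals) in CA-acvr1b* explants. Those that rose in both included foxd3, a crest factor that is also a gastrula mesoderm gene (log2 8.59 and 8.16), pax3a (8.06 and 6.11) and msx1b (4.63 and 3.34), while dlx3b of the outer border fell in both (-1.56 and -1.62). Among 8 proneural and early neuronal genes, 2 were higher and 1 lower in ndr2 explants (2 higher and 0 lower with library totals alone) and 3 were higher in CA-acvr1b* explants, with neurog1 at 6.68 and 5.96.

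Of 7 tested Gli and Glis genes, the relatives of the Zic family, 1 was called in each comparison, near the 12.2% and 9.15% of all genes called. This was gli1, a transcriptional target of Hedgehog signalling, at 76.6 CPM in ndr2 explants and 122 CPM in CA-acvr1b* explants, against 1.62 CPM in uninjected explants, and the list medians were 0.06 and -0.07.

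BMP genes and epidermal genes moved the other way. Of 13 tested BMP ligands and response genes, 8 were lower and 3 higher in ndr2 explants (vox, vent and eve1), and 8 were lower and none higher in CA-acvr1b* explants (1 higher with library totals), with bmp7a at -2.14 and -2.15. The list of BMP antagonists also holds gdf6a, a ligand of the BMP family. Among its 6 tested genes 2 were higher in each, chrd (8.83 and 8.16) and nog1 (2.62 and 4.05), and szl was lower in ndr2 explants (-3.80). Of 11 genes of epidermis and non-neural ectoderm, 6 were lower in each (8 in ndr2 explants with DESeq2's size factors or library totals) and none higher, with tp63 at -3.36 and -2.50. Among 9 enveloping layer genes 1 was lower in ndr2 explants and none was called in CA-acvr1b* explants.

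Most paraxial mesoderm genes were also higher in both injected conditions. Of 12 tested paraxial mesoderm genes 11 were higher and 1 lower in ndr2 explants, and 10 were higher in CA-acvr1b* explants (with 1 lower under DESeq2's size factors), with medians of 6.05 and 4.91 (5.69 and 4.78 with bounds). Their summed level over 13 genes was 298 to 914 CPM in ndr2 libraries, 111 to 429.7 CPM in CA-acvr1b* libraries and 32.2 to 142 CPM in uninjected libraries, and myf5, mespaa and meox1 were without a count in all 3 uninjected libraries. The ranges of CA-acvr1b* and uninjected explants overlapped, since CA-acvr1b* B, at 111 CPM, was below uninjected B and C, at 142 and 138 CPM. ndr2 B had the highest paraxial sum, 914 CPM, and the lowest level of all 5 Zic genes among ndr2 libraries. CA-acvr1b* B had the lowest sum of its condition. Its zic1 and zic5 levels were the highest there, its zic2a and zic6 levels the lowest, and its zic4 level was in the middle. Each of these is 1 library, and a relation between the paraxial sum and the Zic levels was not tested. Of 10 Nodal response genes 7 were higher in ndr2 explants and 8 in CA-acvr1b* explants, with summed levels over 12 genes of 1297 to 2018 CPM and 874 to 2142 CPM, against 4.67 to 19.3 CPM. Of 7 endoderm genes 3 were higher and 2 lower in ndr2 explants, and 4 were higher and 1 lower in CA-acvr1b* explants.

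For comparison, the summed level of 18 neural plate regional genes was 1077 to 1783 CPM in ndr2 libraries and 1092 to 1507 CPM in CA-acvr1b* libraries, against 289 to 349 CPM in uninjected libraries. Zic genes are transcribed in neural and in mesodermal tissue, and the part of either kind of marker in the Zic levels was not tested.

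**Figure D4:**
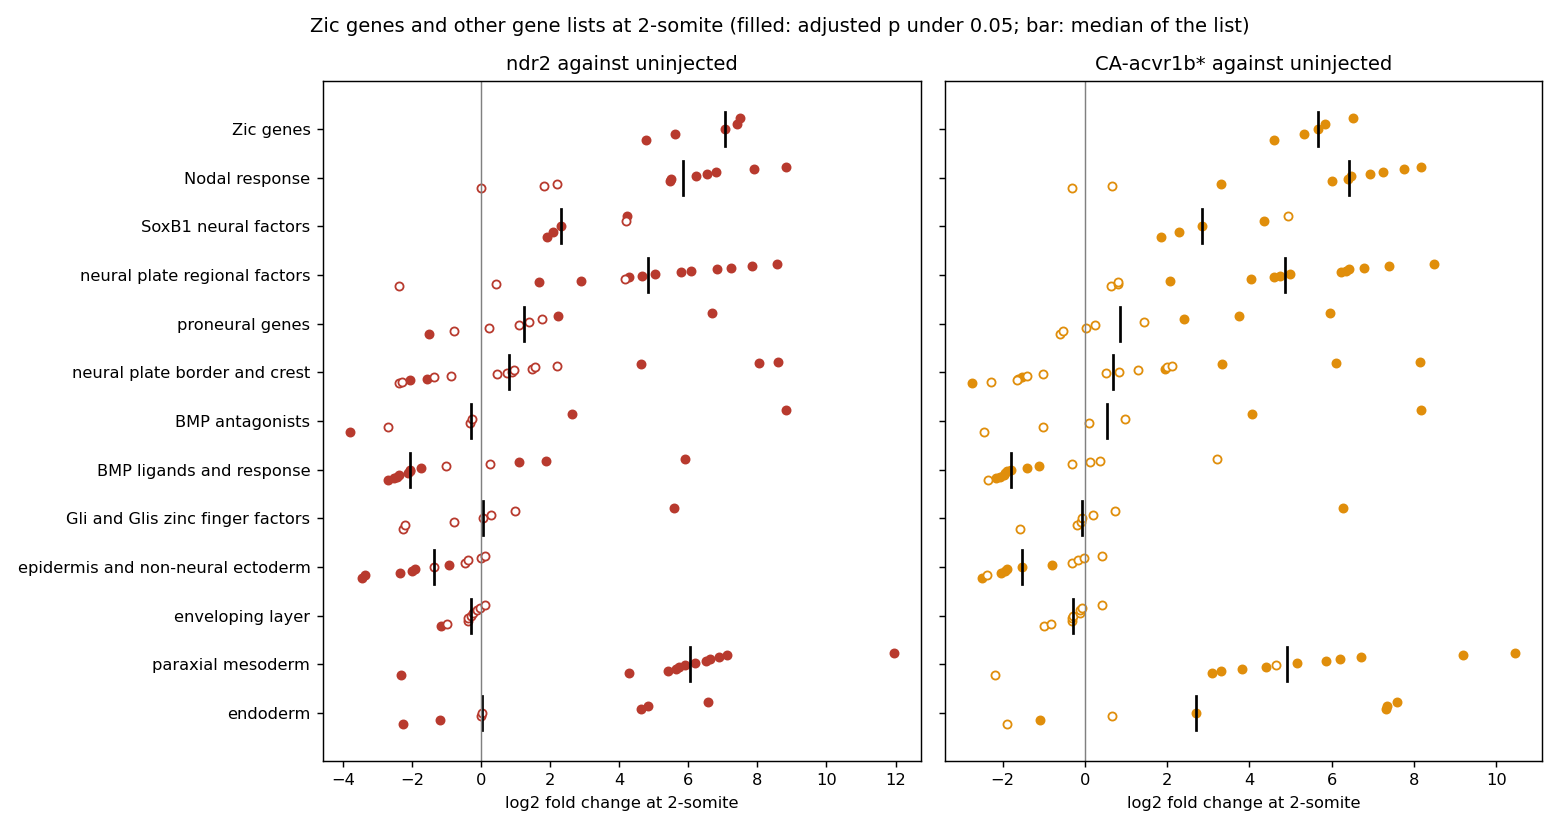
Each point is the log2 fold change of 1 gene at 2-somite, against uninjected explants, for the 5 Zic genes and 12 gene lists, in ndr2 explants on the left and CA-acvr1b* explants on the right. Filled points have an adjusted p under 0.05 and bars are list medians. The Zic points lie between 4.60 and 7.50, in the range of the Nodal response, neural plate regional and paraxial mesoderm lists, and the epidermal and BMP medians lie below 0.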

How the data were processed

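Polyadenylated RNA of 63 zebrafish explant libraries was measured by sequencing. The authors deposited whole-number read counts for 32057 genes, and per the submitters' processing notes Trim Galore, STAR, featureCounts and the build GRCz11 (danRer11) were used. Versions, strand setting and the treatment of reads shared between near-identical copies are not given in the sources used here, so counts of close paralogs such as zic2a and zic2b are uncertain. No count column was left unmapped.

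Counts were analysed as deposited in R 4.3.3 with edgeR 4.0.16: TMM factors (0.865 to 1.30), filterByExpr (minimum count 10, minimum total 15), 1 mean per group of condition and stage, 42 residual degrees of freedom, prior count 0.125, quasi-likelihood F-tests and Benjamini-Hochberg adjustment over 19069 genes in each contrast. The standard error is the log2 fold change divided by the root of F, and intervals cover 95%. Library totals ranged from 11756626 to 19650245 counts (median 15620678). The fit was tested on simulated data. DESeq2 1.42.0, other filters, scalings, blocks and left-out replicates were alternatives. Replicates of a group differed by at least 5.32 times the squared difference that sampling noise gives, so none was counted as a repeat deposit. Same-letter libraries of different conditions did not deviate together at a stage (correlations -0.221 to 0.187), so letters were not treated as pairs. Same-letter libraries of 1 condition did deviate together at some consecutive stages (all 3 letters over 0.1 at 4 of 6 uninjected steps, up to 0.417, and at 2 of 6 ndr2 steps), whereas tests of steps, averages and dependence on stage treat libraries as independent.

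The Zic genes, the gene lists and the tests were chosen with earlier results of these data known. Named besides the Zic genes are, per Zic gene, the 3 protein-coding genes with the highest correlation over groups, and members of the lists called at 2-somite. Other members of the family were not used here.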

Additional observations from a re-analysis of the deposited data

Results flagged for a closer look

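The difference from uninjected explants changed with stage for every tested Zic gene, in the joint edgeR quasi-likelihood test of the differences at the later stages relative to sphere. For ndr2 explants the adjusted p was 9.27e-09 for zic1, 3.21e-06 for zic2a, 0.000102 for zic4, 2.65e-06 for zic5 and 0.0162 for zic6. For CA-acvr1b* explants it was 1.23e-08 for zic1, 0.000887 for zic2a, 0.00856 for zic4, 2.18e-05 for zic5 and 0.0245 for zic6. In all 10 cases the fold change at 2-somite was higher than that at sphere, and both comparisons share the uninjected libraries.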

How the results depend on the processing

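The counts of Zic genes called at the 7 stages against uninjected explants stayed within 1.5 times of 13 (ndr2) and 14 (CA-acvr1b*) in every alternative run, with 9 to 14 and 12 to 13 when 1 letter of 1 condition was left out at all stages. Fitting the compared libraries alone gave 2 calls between ndr2 and CA-acvr1b* explants at the 7 stages in place of 0, 2 in place of 1 on average, 1 in place of 0 for dependence on stage, 8 in place of 3 for CA-acvr1b* steps and 0 in place of 1 for uninjected steps. The uninjected zic5 step called in the main fit had too few counts to be tested in that fit, so its absence there is not a failed test. DESeq2 gave 5 calls for CA-acvr1b* steps and 2 for uninjected steps, which were also 2 with a filter of 1 CPM in 3 libraries, with the letter as a replicate block and with the block within each condition. The replicate block changed no other count by over 1.5 times. Without the 2-somite stage, dependence on stage was called for 2 genes (ndr2) and 3 genes (CA-acvr1b*) in place of 5, and the ndr2 against CA-acvr1b* average for 2 in place of 1. With counts summed over stages per letter that average was called for 0 genes and the ndr2 against uninjected average for 5 in place of 3, and the zic2a average between ndr2 and CA-acvr1b* explants was 0.19 in place of -0.47. Leaving out letters gave 3 to 4 calls for ndr2 steps, 1 to 3 for CA-acvr1b* steps, 0 to 1 for uninjected steps, 0 to 1 for the ndr2 against CA-acvr1b* average, and 4 to 5 (ndr2) and 3 to 5 (CA-acvr1b*) for dependence on stage. The zic4 average for ndr2 against uninjected explants, 0.11 and not called, was -0.66 without 2-somite and from -0.19 to 0.52 with a letter left out. That average weighs the 7 stages equally, and its stage differences ran from -1.85 at 30% epiboly to 4.77 at 2-somite. Leaving out 2-somite removes the highest of them. The cause of the spread between stages was not tested. Fitting the compared libraries alone also ended the zic2a calls in ndr2 explants at sphere (adjusted p = 0.334) and 30% epiboly (0.141) and in CA-acvr1b* explants at 50% epiboly (0.0612) and 2-somite (0.0505), those of zic5 at 75% epiboly in ndr2 explants (0.0672) and at 90% epiboly (0.103 and 0.0579), and that of zic4 (0.0910). Depth limits zic4, zic5 and zic6 most, with fewer than 10 counts in many libraries.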
